A study of Mus musculus with 8 samples.

Results

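The collagen genes were examined in ATCL7 cells, which descend from a tumour of the mouse adrenal cortex and were immortalized, after treatment with a glycogen synthase kinase 3 inhibitor. A gene was taken as a collagen gene when its deposited symbol had the form Col, a number, a and a number, as in Col4a1. The symbols gave 43 such genes among 20719 named genes on the array. Of several probe sets for a gene, the brightest on average was used. All 43 symbols denote alpha chains of collagens, and a chain deposited under an older symbol is left out.

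Treated cells had 24 h with 0.5 µM BIO (6-bromoindirubin-3'-oxime), and control cells had 24 h with vehicle, 0.01% DMSO. Each group had 4 samples, and the titles joined them into 4 numbered pairs of 1 BIO and 1 vehicle sample. All 8 samples came from the same male line, held about 250000 cells and were treated in medium with only 0.025% each of fetal bovine and horse serum, against 2.5% of each for growth. No genetic change separated the groups, and whether the pairs were separate cultures is not stated, so the p-values cover the spread between these samples only, which may be technical. BIO inhibits glycogen synthase kinase 3, so that β-catenin is no longer marked for destruction, and is known to act on other kinases and on the aryl hydrocarbon receptor.

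Collagens are trimers of alpha chains wound into a long helix. Fibrillar collagens form the banded fibrils of connective tissue, type IV collagen forms the sheet-like network of basement membranes, and fibril-associated collagens (FACITs) sit on the surface of fibrils. Other classes form beaded filaments (type VI), short-chain networks, anchoring fibrils and transmembrane proteins. In the adrenal cortex type IV collagen surrounds the cords of steroid-producing cells, and fibrillar collagens are made mainly by cells of the capsule and stroma. Newly made chains are hydroxylated and folded in the endoplasmic reticulum, trimmed of their propeptides outside the cell and cross-linked by lysyl oxidases.

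Expression was read as log2 RMA values, 1 array per sample. A change is the BIO value minus the vehicle value on that scale, fitted with limma with the pair as a block, and a gene passed at an adjusted p of 0.05 over all 20719 genes. Array medians lay between 5.70 and 5.73 log2. A probe set's log2 value depends on its probes, so it is not read as the expression of one gene against another. Where genes are sorted by mean value below, that value stands only for the strength of the signal on the array. All 6 markers of adrenocortical cells passed as lower in BIO, with means from 4.97 to 10.93 in BIO and from 5.68 to 11.84 in vehicle. The share over all genes was 32.7% passing, 15.6% as lower. Of 6 fibroblast markers 0 passed. Their summed log2 value ran from 25.4 to 26.3 over the BIO arrays and from 25.1 to 26.4 over the vehicle arrays. None of the 4 endothelial or 4 chromaffin markers passed, and 1 of 4 macrophage markers did, Cd68, at 7.25 ± 0.11 in BIO and 7.70 ± 0.13 in vehicle (SD, n = 4 each). The endothelial sums ran from 17.5 to 18.2 in BIO and from 17.6 to 18.1 in vehicle, the chromaffin sums from 18.4 to 19.0 and from 18.8 to 18.9, and the macrophage sums from 20.1 to 20.3 and from 20.6 to 20.8. The endothelial and chromaffin markers were also dim, with no group mean above 5.49. With all genes split by mean value into 4 equal parts, the 2 dimmest parts reached up to 6.44. In them 4.42% and 22.4% of genes passed. Of the markers outside the adrenocortical list, only Cd68 lay above that level. RMA compresses dim signals, so a change in the dim markers could be understated, and their not passing is not read as unchanged cell content. The part of the markers in the collagen results was not tested.

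In BIO 4 of the 6 type IV chains fell, as did 3 fibrillar chains, the FACIT chain Col14a1 and the type VI chain Col6a1, and a single collagen gene rose, the FACIT chain Col20a1. In all, 9 of 43 collagen genes fell, 1 rose and 33 did not pass. Of all genes, 15.6% fell, 17% rose and 32.7% passed in either direction, so the share of collagen genes that passed, 23.3%, was no higher than the background. Type IV had the lowest class median, with a median log2 change of −0.50 over 6 genes, against −0.05 over 11 fibrillar genes and −0.04 over the 26 genes of the other classes. The median was −0.05 over the 43 genes and −0.01 over all genes. The fibrillar median was −0.08 without replicate 3, and that of the other classes was −0.07 without replicate 1 and −0.02 without replicate 3. The classes also differed in signal strength, with a median of the mean values of 7.31 for type IV, 5.44 for fibrillar and 5.37 for the others. With the lowest 50% of genes left out, the median changes were −0.58 over 4 type IV genes, −0.37 over 1 fibrillar gene and −0.18 over 3 others. The part of signal strength in the contrast of classes was not tested. These medians and counts are descriptions and carry no test.

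**Figure D1:**
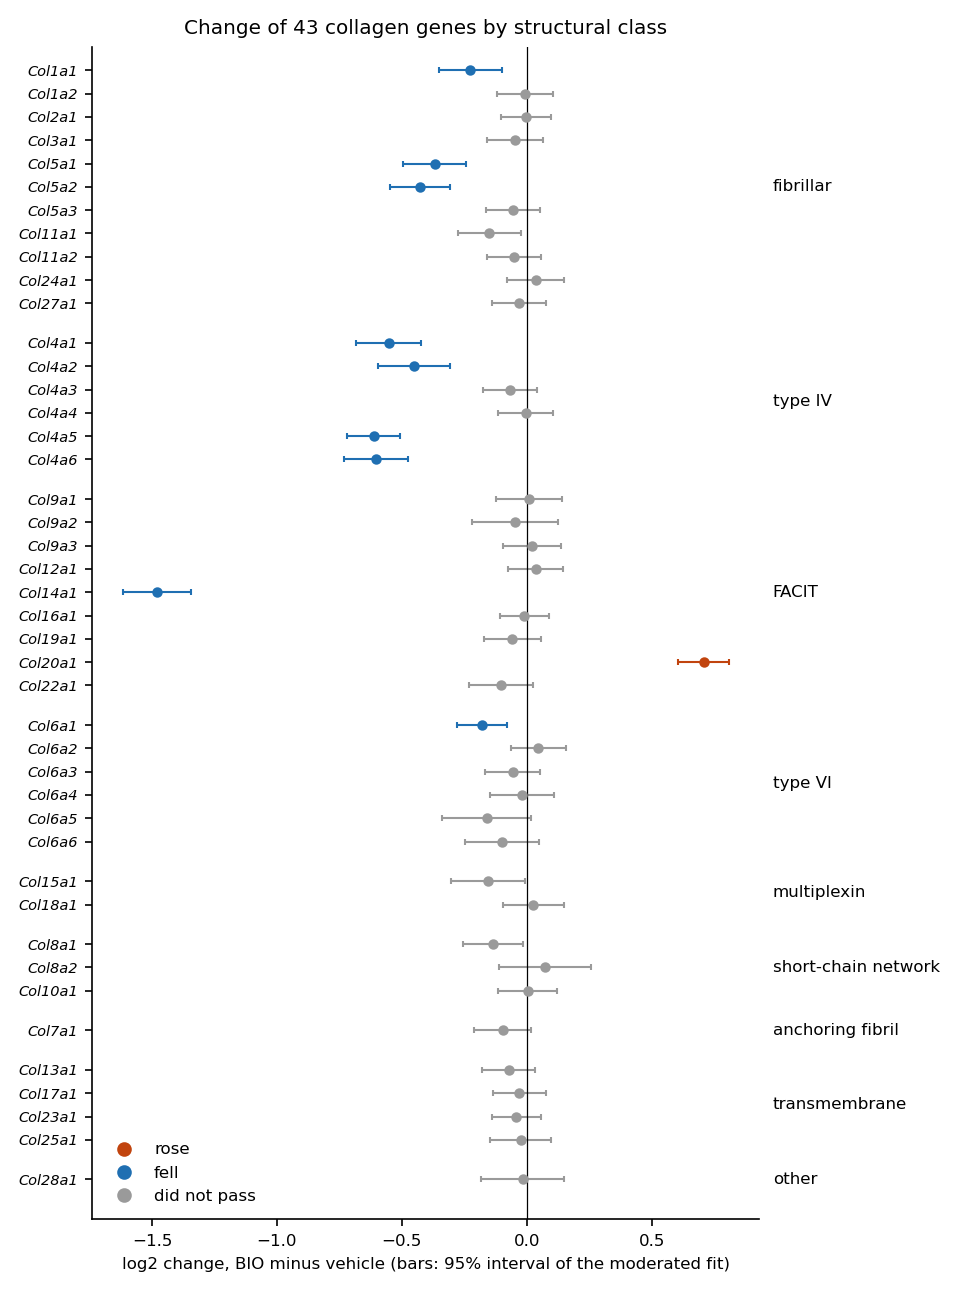
Log2 change (BIO minus vehicle) of each of the 43 collagen genes, ordered by structural class. Points are the fitted changes and bars their 95% intervals. The 4 type IV chains that fell lie together between −0.61 and −0.45, Col14a1 lies alone at −1.48 and Col20a1 alone at 0.71.

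Over all genes, the share that passed differed with the strength of the signal: it was 4.42%, 22.4%, 57.0% and 46.8% from the dimmest to the brightest of 4 parts. With all genes split by mean value into 4 parts of equal size, 34 collagen genes lay in the second part from the dim end and 8 in the third, with 1 in the dimmest and 0 in the brightest. All 8 in the third part passed, and 2 of the 34 in the second did. RMA compresses dim signals and no detection call is given, so a change among the 34 could be understated. As these are values of whole cultures, fewer cells that make a collagen and less RNA per cell cannot be told apart.

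**Figure D2:**
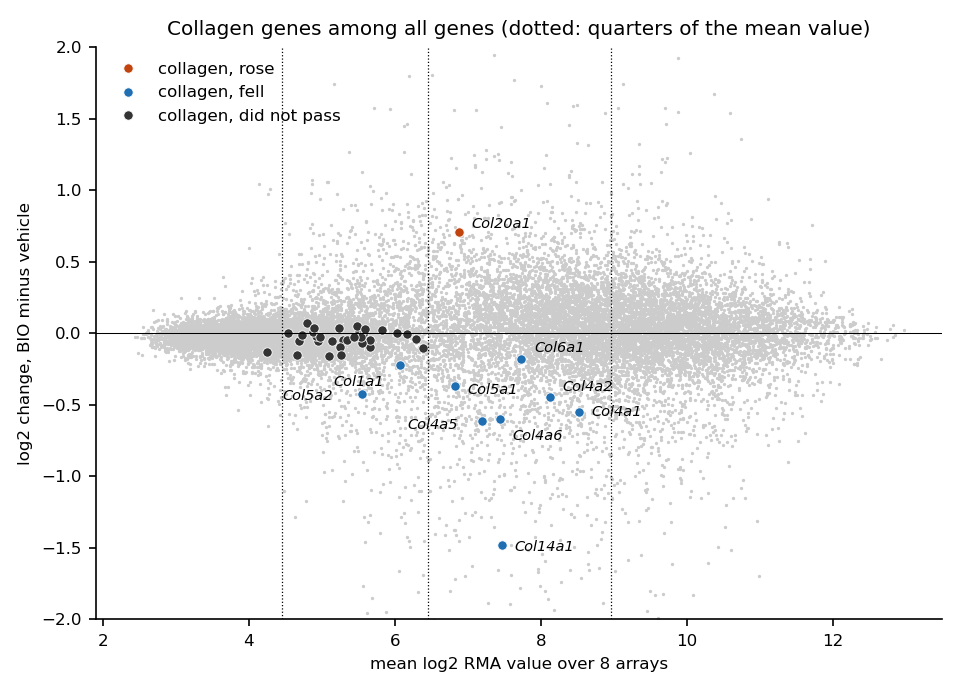
Mean log2 value over the 8 arrays (x axis) against the log2 change (BIO minus vehicle, y axis) for all 20719 genes (grey) and the 43 collagen genes (coloured by call). Dotted lines divide all genes into 4 equal parts by mean value, and 38 genes beyond 2 log2 units in either direction lie outside the axis. The collagen genes right of the middle line are the 8 that all passed.

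Col4a5 and Col4a6 encode the chains that combine into the α5α5α6 trimer found in some basement membranes, and they are neighbours on the X chromosome, read in opposite directions. RefSeq (GRCm38.p6) places the start sites used here 1343 bases apart. The bases upstream of each gene that lie outside any annotated gene are shown 5′ to 3′ on the gene's own strand because these neighbours fell by almost the same amount. The first is chrX:141475169-141475369 on the plus strand, the second chrX:141474096-141474326 on the minus strand.
Col4a5: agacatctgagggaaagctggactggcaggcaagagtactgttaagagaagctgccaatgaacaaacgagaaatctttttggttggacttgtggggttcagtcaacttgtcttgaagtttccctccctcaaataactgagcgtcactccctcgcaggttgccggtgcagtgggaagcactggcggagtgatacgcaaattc
Col4a6: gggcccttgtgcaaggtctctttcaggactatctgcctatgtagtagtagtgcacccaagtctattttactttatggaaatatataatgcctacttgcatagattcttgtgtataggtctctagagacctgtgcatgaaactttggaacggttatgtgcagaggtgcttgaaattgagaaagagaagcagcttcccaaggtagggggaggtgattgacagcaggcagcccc

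Col4a5 had 6.82, 6.84, 6.89 and 7.00 log2 in BIO pairs 1 to 4, against 7.43, 7.37, 7.59 and 7.60 in vehicle. The highest BIO array lay below the lowest vehicle array. The change was −0.61 ± 0.05 (SE, n = 4 pairs), a 1.53-fold fall with an adjusted p of 3.71e-05. Col4a6 had 6.93, 7.11, 7.17 and 7.33 in BIO, against 7.51, 7.56, 7.91 and 7.97 in vehicle. Its groups did not overlap either, and its values were lower in pairs 1 and 2 than in pairs 3 and 4 under both treatments. The change was −0.60 ± 0.06, a 1.52-fold fall with an adjusted p of 9.2e-05. All BIO arrays lay below all vehicle arrays for 9 of the 43 collagen genes, and for 12.9% of all genes. Those 9 were Col1a1, Col4a1, Col4a2, Col4a5, Col4a6, Col5a1, Col14a1 and, without passing the test, Col8a1 and Col11a1.

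Col4a1 and Col4a2 encode the chains of the α1α1α2 trimer, the common network of nearly all basement membranes. They are also neighbours read in opposite directions, on chromosome 8. Their RefSeq start sites lie 21 bases apart, and the annotated genes overlap there, with no gap between them. Col4a1 had 8.25, 8.20, 8.29 and 8.26 log2 in BIO, against 8.64, 8.86, 8.92 and 8.78 in vehicle. The BIO arrays lay within 0.1 log2 of each other and below all vehicle arrays. Its change was −0.55 ± 0.06 (SE), a 1.47-fold fall with an adjusted p of 0.000154. Col4a2 had 7.91, 7.90, 7.90 and 7.88 in BIO, against 8.14, 8.42, 8.46 and 8.37 in vehicle. Vehicle replicate 1 was the lowest vehicle array for this gene, and still lay above all BIO arrays. The change was −0.45 ± 0.06, a 1.37-fold fall with an adjusted p of 0.000844, and the authors' deposited paired test, adjusted over all genes, left it at 0.0507.

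Col4a3 and Col4a4, whose chains combine with that of Col4a5 in the network of the glomerular basement membrane, did not pass. Col4a3 was at 5.61 ± 0.08 in BIO and 5.68 ± 0.14 in vehicle (SD, n = 4 each), with a change of −0.07 and a 95% interval from −0.18 to 0.04. Col4a4 was at 5.56 ± 0.08 in BIO and 5.57 ± 0.09 in vehicle, with a change of −0.005 and an interval from −0.11 to 0.11. Both intervals leave out a fall of the size seen for the other 4 chains on the RMA scale. Their mean values, 5.64 for Col4a3 and 5.56 for Col4a4, were dimmer than those of the other 4 chains, 7.19 to 8.53. As RMA compresses dim signals, the intervals do not settle whether the RNA of these 2 chains fell. The difference between these chains and the other 4 was not tested.

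**Figure D3:**
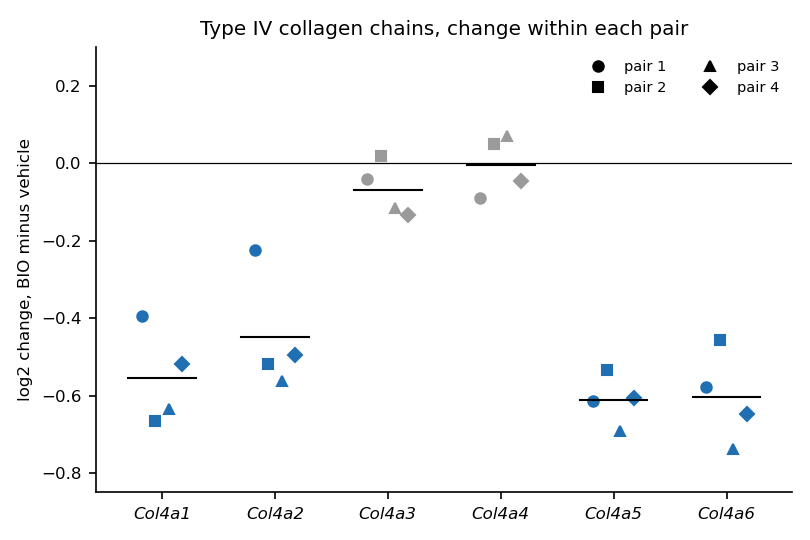
Log2 change (BIO minus vehicle) of the 6 type IV collagen chains in each of the 4 pairs (marker shapes), with the mean as a black line. All 4 pairs lie below 0 for Col4a1, Col4a2, Col4a5 and Col4a6, while Col4a3 and Col4a4 scatter around 0.

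Of 6 listed partners of type IV collagen in the basement membrane, 4 fell, 0 rose and 2 did not pass, with a median log2 change of −0.27, where 15.6% of all genes fell. The list carries no test. In this and the other lists, up to 4 genes that passed are named for the largest absolute change. Up to 2 that did not pass are named for the highest mean value, so all were picked by their values. Nid1, which encodes nidogen, a link between the collagen and laminin networks, fell to 6.74, 6.79, 6.12 and 5.66 log2 in BIO, against 8.33, 9.10, 7.85 and 7.58 in vehicle. Every pair was lower by more than the range of the BIO arrays, and the change was −1.89 ± 0.10 (SE), a 3.7-fold fall with an adjusted p of 8.31e-06. Pxdn, which encodes peroxidasin, the enzyme that forms the sulfilimine cross-links of type IV collagen, was 1.39-fold lower (−0.48 ± 0.05, adjusted p = 0.000226). Hspg2, which encodes perlecan, was 1.3-fold lower (−0.37 ± 0.05), and Sparc, a collagen-binding glycoprotein, was 1.12-fold lower (−0.17 ± 0.04). The call of Sparc was lost without replicate 1 (adjusted p = 0.0538), 3 (0.0935) or 4 (0.0534). Nid2 and Agrn did not pass, with changes of 0.09 ± 0.04 and −0.09 ± 0.05.

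Of 11 fibrillar chains, 3 fell, 0 rose and 8 did not pass. The share that passed, 27.3%, was no higher than the 32.7% of all genes. Col5a1 and Col5a2 encode the chains of type V collagen, which nucleates fibrils and sets their width. Col5a1 had 6.59, 6.70, 6.60 and 6.65 log2 in BIO, against 6.87, 6.99, 7.13 and 7.02 in vehicle. The groups did not overlap, and the change was −0.37 ± 0.05 (SE), a 1.29-fold fall with an adjusted p of 0.00118. A second, dimmer probe set of Col5a1 was lower in 4 of 4 pairs, by −0.13. Col5a2 had 5.32, 5.59, 5.22 and 5.19 in BIO, against 5.78, 6.14, 5.54 and 5.57 in vehicle. Pair 2 was high under both treatments, so that BIO replicate 2 lay above 2 of the vehicle arrays, while each pair taken alone was lower. Its change was −0.43 ± 0.05, a 1.34-fold fall with an adjusted p of 0.000418.

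Type I collagen, the main collagen of connective tissue fibrils, gave a small change in 1 of its chains. Col1a1 had 6.01, 5.91, 5.96 and 5.96 log2 in BIO, against 6.11, 6.27, 6.11 and 6.25 in vehicle. The arrays did not overlap, and the change was −0.23 ± 0.06 (SE), a 1.17-fold fall with an adjusted p of 0.0145. The call was lost without replicate 2 (adjusted p = 0.0599) or 4 (0.0573) and by the authors' deposited paired test (0.106). Col1a2, the partner chain, was at 5.50 ± 0.03 in BIO and 5.50 ± 0.10 in vehicle (SD, n = 4 each), with a 95% interval of the change from −0.12 to 0.11.

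The other fibrillar chains did not pass. Col3a1, which is co-deposited with type I, was at 5.27 ± 0.06 in BIO and 5.32 ± 0.04 in vehicle, and Col2a1, the fibrillar collagen of cartilage, at 6.02 ± 0.03 and 6.03 ± 0.02. Col11a1, a cartilage chain related to type V, was the closest to passing, with a change of −0.15 ± 0.06 (SE) and an adjusted p of 0.0721. Its 4 BIO arrays lay between 5.09 and 5.29 and its 4 vehicle arrays between 5.31 and 5.43. Col5a3, Col11a2, Col24a1 and Col27a1 had changes between −0.06 and 0.04.

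Col14a1 and Col20a1, both FACIT chains, changed in opposite directions, and the other 7 FACIT genes did not pass. The share of FACIT genes that passed was 22.2%, against 32.7% of all genes. Col14a1 encodes a FACIT that binds fibrils through decorin and regulates their early growth. It had 6.92, 5.96, 7.06 and 6.95 log2 in BIO, against 8.34, 7.63, 8.54 and 8.31 in vehicle. Pair 2 was the lowest pair under both treatments, and all BIO arrays lay below all vehicle arrays. Pair by pair the change was −1.42, −1.68, −1.47 and −1.36, and the fitted change was −1.48 ± 0.06 (SE), a 2.79-fold fall with an adjusted p of 2.33e-06.

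Col20a1 encodes a FACIT chain of less known function. It had 7.17, 7.14, 7.32 and 7.28 log2 in BIO, against 6.42, 6.39, 6.64 and 6.63 in vehicle. The arrays did not overlap, as was so for 14.1% of all genes in the same direction, and pairs 3 and 4 were above pairs 1 and 2 under both treatments. The change was 0.71 ± 0.04 (SE), a 1.63-fold rise with an adjusted p of 1.59e-05, and was 0.75, 0.75, 0.68 and 0.65 in pairs 1 to 4. A second, dimmer probe set of Col20a1 was higher in 4 of 4 pairs, by 0.35, with 5.83 in BIO and 5.48 in vehicle. Of the FACIT genes that did not pass, Col22a1 had the lowest change, with 6.35, 6.27, 6.41 and 6.31 in BIO, against 6.30, 6.35, 6.57 and 6.54 in vehicle (−0.10 ± 0.06, adjusted p = 0.21). The other 6, Col9a1, Col9a2, Col9a3, Col12a1, Col16a1 and Col19a1, had changes between −0.06 and 0.04.

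**Figure D4:**
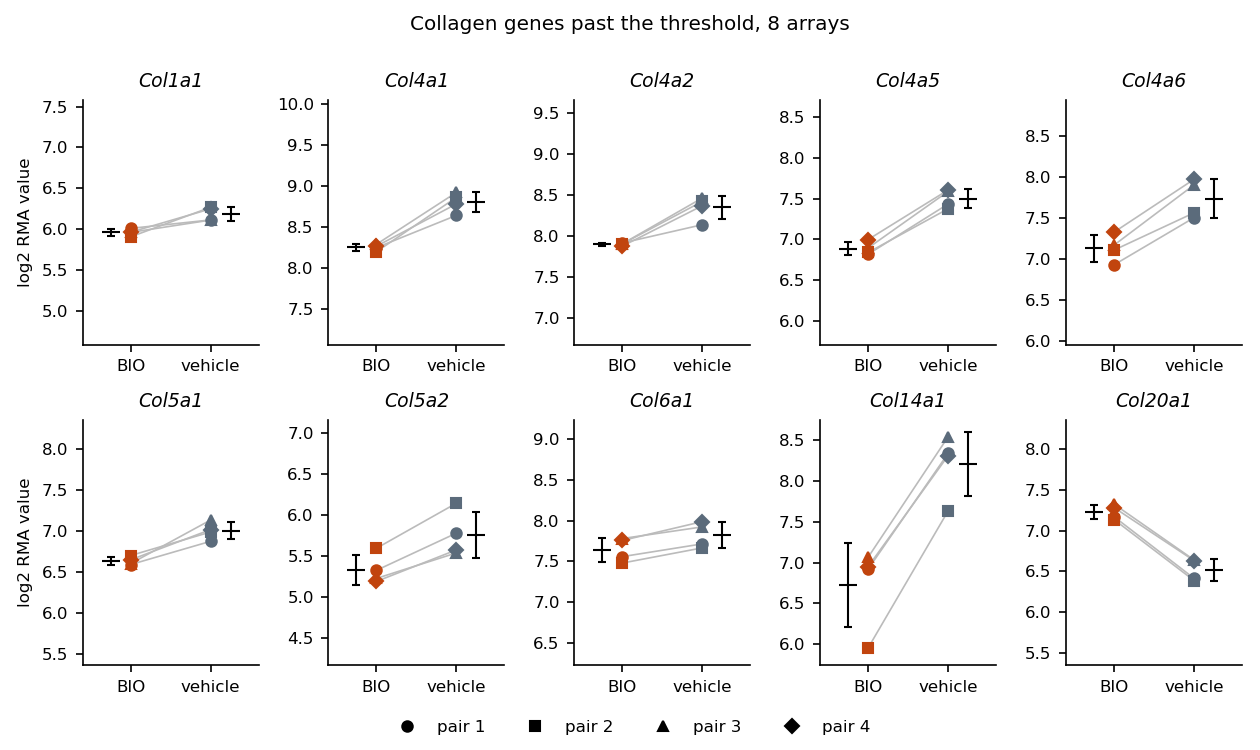
Log2 values of the 10 collagen genes that passed, on each of the 8 arrays, with BIO left of vehicle and grey lines joining the samples of a pair (marker shapes). Black marks give the mean and SD of 4 arrays, and every panel spans 3 log2 units. Col14a1 shows the widest gap and Col20a1 the only rise, and Col5a2 and Col6a1 overlap between groups while each pair falls.

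Type VI collagen, which forms beaded filaments around cells, had 1 gene of 6 that fell and none that rose. That share, 16.7%, was below the 32.7% of all genes that passed. Col6a1 had 7.56, 7.48, 7.78 and 7.76 log2 in BIO, against 7.72, 7.67, 7.92 and 7.99 in vehicle. The groups overlapped, pairs 3 and 4 being higher than pairs 1 and 2 under both treatments, and each pair was lower by 0.14 to 0.23. The change was −0.18 ± 0.04 (SE), a 1.13-fold fall with an adjusted p of 0.0137. The call rests on the pairing, with an adjusted p of 0.215 without the pair block, and was lost without replicate 4 (0.0565). Its partner chains did not pass, with Col6a2 at 5.51 ± 0.10 in BIO and 5.46 ± 0.12 in vehicle, and Col6a3 at 4.91 ± 0.08 and 4.97 ± 0.05 (SD, n = 4 each). Col6a4, Col6a5 and Col6a6 had changes of −0.02, −0.16 and −0.10, and Col6a5 passed without replicate 1 (−0.26, adjusted p = 0.0138). A second, dimmer probe set of Col6a5 changed by 0.03 and was lower in 2 of 4 pairs. That of Col6a6 changed by −0.05 and was lower in 4 of 4.

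None of the remaining 11 collagen genes passed. The multiplexins Col15a1 and Col18a1, whose proteins lie in the basement membrane zone and whose fragments include endostatin, had changes of −0.16 ± 0.06 (SE, adjusted p = 0.102) and 0.03 ± 0.05. Col15a1 was at 4.59 ± 0.02 in BIO and 4.74 ± 0.16 in vehicle, and Col18a1 at 5.60 ± 0.07 and 5.58 ± 0.10 (SD, n = 4 each). Among the short-chain collagens, Col8a1 was at 4.19 ± 0.10 in BIO and 4.32 ± 0.11 in vehicle (adjusted p = 0.0891), Col8a2 changed by 0.07 ± 0.08 and Col10a1, of growth plate cartilage, by 0.003 ± 0.05. Col8a2 passed as higher without replicate 4 (0.18, adjusted p = 0.0373). Col7a1, the anchoring fibril collagen of skin, changed by −0.10 ± 0.05, the transmembrane chains Col13a1, Col17a1, Col23a1 and Col25a1 by −0.07 to −0.02, and Col28a1 by −0.02 ± 0.07. Col23a1 had 6.16, 6.28, 6.25 and 6.38 in BIO, against 6.19, 6.28, 6.33 and 6.43 in vehicle, so that BIO and vehicle overlapped almost fully.

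The changes of chains of the same collagen type were set against each other within each pair, in 8 chain pairs. An exact sign-flip test over 4 pairs (two-sided) gives at best a p of 1 in 8, so none could pass. Col4a5 and Col4a6 differed by −0.01 ± 0.06 log2 (SD, n = 4 pairs, exact p = 1), with a 95% interval from −0.10 to 0.09. Col4a1 minus Col4a2 was −0.10 ± 0.07 log2, below 0 in 4 of 4 pairs (the smallest exact p the test can give, adjusted p = 0.333). Its interval ran from −0.21 to 0.004. Col5a1 and Col5a2 differed by 0.06 ± 0.21 (exact p = 0.625), with an interval from −0.28 to 0.39. Col1a1 minus Col1a2 was −0.22 ± 0.09 and Col6a1 minus Col6a2 was −0.23 ± 0.05, below 0 in 4 of 4 pairs each (the smallest exact p the test can give, adjusted p = 0.333 each). Their intervals, −0.36 to −0.08 and −0.30 to −0.15, left out 0. The differences of Col6a1 and Col6a3, Col8a1 and Col8a2, and Col11a1 and Col11a2 were −0.12, −0.21 and −0.10, with exact p of 0.25, 0.25 and 0.375. Those intervals ran from −0.29 to 0.04, −0.67 to 0.26 and −0.38 to 0.18. The intervals rest on 4 pairs each and are not adjusted for the 8 chain pairs.

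Promoter windows from 250 bases before a RefSeq start to 50 after it were matched for 35 of the 43 genes, 7 of them among the 10 that passed. Both strands were searched for 4 motifs, none of which contains another: CTTTGA, the core bound by TCF/LEF factors, the partners of β-catenin; TGANTCA, the AP-1 site; CAGAC, the SMAD box; and GGAATG, the TEAD site. CTTTGA stood in the windows of 9 of 35 collagen genes and in 16.0% of 32851 mouse windows, and among the genes that passed it was found for Col20a1 and Col6a1, 1 of which rose while the other fell. Collagen genes are counted with a match in any of their windows, while the percentages are shares of single windows, so the measures differ. TGANTCA stood in 1 of 35 (7.81% of all windows), that of Col6a1. CAGAC stood in 20 of 35 (49.6%) and GGAATG in 5 of 35 (14.7%), the last including Col20a1 and Col4a6. The Col20a1 match is shown with 30 bases at chr2:180986492-180986521 (plus strand, inside the annotated gene), and the Col6a1 matches with the 250 bases upstream at chr10:76726045-76726294 (minus strand), as these genes moved in opposite directions with the same core. Capitals mark CTTTGA and, for Col6a1, also TGACTCA. A match is a stretch of letters and not a tested site.
Col20a1: agtggtgaagggCTTTGAcctctcctccca
Col6a1: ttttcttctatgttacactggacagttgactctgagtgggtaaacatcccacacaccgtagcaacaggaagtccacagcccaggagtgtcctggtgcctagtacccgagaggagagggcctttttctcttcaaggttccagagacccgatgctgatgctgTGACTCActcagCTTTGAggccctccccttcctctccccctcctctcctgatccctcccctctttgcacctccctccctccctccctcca

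Of 21 measured genes that modify and fold new collagen chains, 4 fell, 4 rose and 13 did not pass. The share that passed, 38.1%, was near the 32.7% of all genes. The median log2 change was 0.0039, and lay between −0.030 and −0.0024 when any 1 pair was left out. P4ha2 and P4ha3 encode catalytic subunits of prolyl 4-hydroxylase, whose product hydroxyproline holds the helix together. P4ha2 had 8.28, 8.48, 8.18 and 8.14 log2 in BIO, against 8.81, 9.03, 9.03 and 9.16 in vehicle, with no overlap and a change of −0.74 ± 0.08 (SE, adjusted p = 0.000304). P4ha3 had 8.15, 8.26, 8.32 and 8.46 in BIO, against 8.90, 8.87, 8.88 and 8.90 in vehicle, also with no overlap and a change of −0.59 ± 0.06 (adjusted p = 0.000121). Plod2, a lysyl hydroxylase that prepares telopeptide cross-links, was 1.42-fold lower (−0.51 ± 0.05, adjusted p = 0.000101). The third catalytic subunit gene, P4ha1, did not pass (−0.13 ± 0.05, adjusted p = 0.0989), but did with an intensity trend and robust prior (0.0285).

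Mia3, which encodes a receptor that loads bulky procollagen into transport vesicles, was higher, at 9.08 ± 0.03 in BIO, against 8.69 ± 0.10 in vehicle (SD, n = 4 each; log2 change 0.38 ± 0.06, SE, adjusted p = 0.00141). Its call was lost by the authors' deposited paired test (adjusted p = 0.0539). P3h1, Plod1 and P4hb also rose, by 0.28, 0.20 and 0.18, and P3h2 fell (−0.26). These 4 were picked out in addition to those with the largest changes, likewise after their values were seen. Ppib, a prolyl isomerase of the folding complex, did not pass, with 11.74 ± 0.05 in BIO and 11.70 ± 0.07 in vehicle.

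Of 13 measured genes that trim and cross-link collagen outside the cell, 6 fell, 0 rose and 7 did not pass, where 15.6% of all genes fell and 17% rose. The median log2 change was −0.17. Adamts2, the main protease that removes the N-propeptide of fibrillar procollagens, had 7.56, 7.22, 7.88 and 8.17 log2 in BIO, against 9.08, 8.57, 9.49 and 9.67 in vehicle. Pair 2 was the lowest under both treatments, as for Col14a1, and the change was −1.50 ± 0.05 (SE), a 2.82-fold fall with an adjusted p of 1.47e-06. Lox, a lysyl oxidase that starts cross-links, had 4.19, 4.25, 4.07 and 4.26 in BIO, against 5.23, 5.43, 5.33 and 5.50 in vehicle, with no overlap and a 2.26-fold fall. Tll1, which encodes a protease that removes C-propeptides, was at 5.14 ± 0.35 in BIO and 6.09 ± 0.74 in vehicle (SD, n = 4 each), with overlapping groups and a change of −0.96 ± 0.13 (SE, adjusted p = 0.000902). The authors' deposited paired test lost that call (adjusted p = 0.077), as did the fit without pairs (0.0635). Loxl2 was 1.31-fold lower (−0.39 ± 0.05), while Loxl3 and Loxl4 did not pass (0.01 ± 0.05 and 0.12 ± 0.08). Pcolce (−0.28) and Bmp1 (−0.19), picked out in addition after their values were seen, also fell.

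Of 12 genes for matrix proteins that bind or shape fibrils, 4 fell, 1 rose and 7 did not pass, with a median log2 change of −0.08. The share that passed was 41.7%, against 32.7% of all genes. The 7 that did not pass had mean values from 3.34 to 4.19. They lay in the dimmest of the 4 parts, where 4.42% of all genes passed. With the lowest 25% of genes left out, 5 of the 12 remained, and 4 of them fell and 1 rose. A change among the 7 dim genes could thus be understated. Fn1, which encodes fibronectin, on which fibrils assemble, was at 11.60 ± 0.10 in BIO and 12.08 ± 0.16 in vehicle (SD, n = 4 each; 1.39-fold lower, adjusted p = 0.000136). Tnxb, which encodes tenascin X, a spacer of fibrils, rose to 6.51 ± 0.07 in BIO, against 5.97 ± 0.24 in vehicle (log2 change 0.54 ± 0.07, SE, adjusted p = 0.000558). Prelp (−0.25 ± 0.05), Postn (−0.22 ± 0.06) and, picked out in addition after its value was seen, Bgn (−0.22 ± 0.05) fell. The authors' deposited paired test lost the calls of Prelp and Postn (adjusted p = 0.0738 and 0.16). The call of Postn was also lost without the pair block (0.13) and without replicate 2, 3 or 4 (0.0937, 0.0552 and 0.102). Dcn, which encodes the fibril-binding proteoglycan decorin, was at 4.27 ± 0.26 in BIO and 3.97 ± 0.11 in vehicle and did not pass (adjusted p = 0.0873), though it did without replicate 4 (0.44, adjusted p = 0.0137). Comp did not pass (0.09 ± 0.04).

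Collagen receptors included the strongest rise among the listed genes. Of 8 measured genes of 9 listed, 4 fell, 2 rose and 2 did not pass, where 15.6% of all genes fell and 17% rose. The median log2 change was −0.17. Ddr2, a receptor tyrosine kinase that binds fibrillar collagen, had 6.61, 6.60, 5.71 and 5.52 log2 in BIO, against 4.92, 5.08, 4.88 and 5.06 in vehicle. The BIO arrays of pairs 1 and 2 lay about 1 log2 unit above those of pairs 3 and 4, and all lay above the vehicle arrays. Its change was 1.12 ± 0.18 (SE, adjusted p = 0.00178), and the authors' deposited paired test did not pass it (adjusted p = 0.0993). The integrin subunits that bind collagen moved apart, with Itga10 higher (0.34 ± 0.05) and Itga2 (−0.57 ± 0.05) and Itga11 (−0.43 ± 0.04) lower. Itgb1 (−0.33) and Ddr1 (−0.24), picked out in addition after their values were seen, fell too. Itga1 and Lair1 did not pass (−0.11 ± 0.05 and 0.08 ± 0.05).

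Among genes of collagen breakdown and uptake, 3 of 9 fell, 0 rose and 6 did not pass. The share that passed, 33.3%, was near the 32.7% of all genes. The median log2 change was −0.04, and was −0.10 without replicate 2 and −0.02 without replicate 4. Mmp14, a membrane-bound collagenase, had 9.42, 9.41, 9.39 and 9.52 log2 in BIO, against 9.91, 9.87, 9.94 and 10.04 in vehicle, with no overlap and a 1.42-fold fall (−0.50 ± 0.04, SE, adjusted p = 6.91e-05). Mmp2, a gelatinase that cleaves type IV collagen, was at 6.35 ± 0.54 in BIO and 6.80 ± 0.53 in vehicle (SD, n = 4 each), with overlapping groups and a change of −0.45 ± 0.07 (SE, adjusted p = 0.00159). The fit without pairs lost that call (adjusted p = 0.342). So did the authors' deposited paired test (0.0709), which also lost that of Mmp13 (−0.40 ± 0.07, adjusted p = 0.0783). Ctsk and Mrc2 did not pass (0.13 ± 0.08 and 0.03 ± 0.09).

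**Figure D5:**
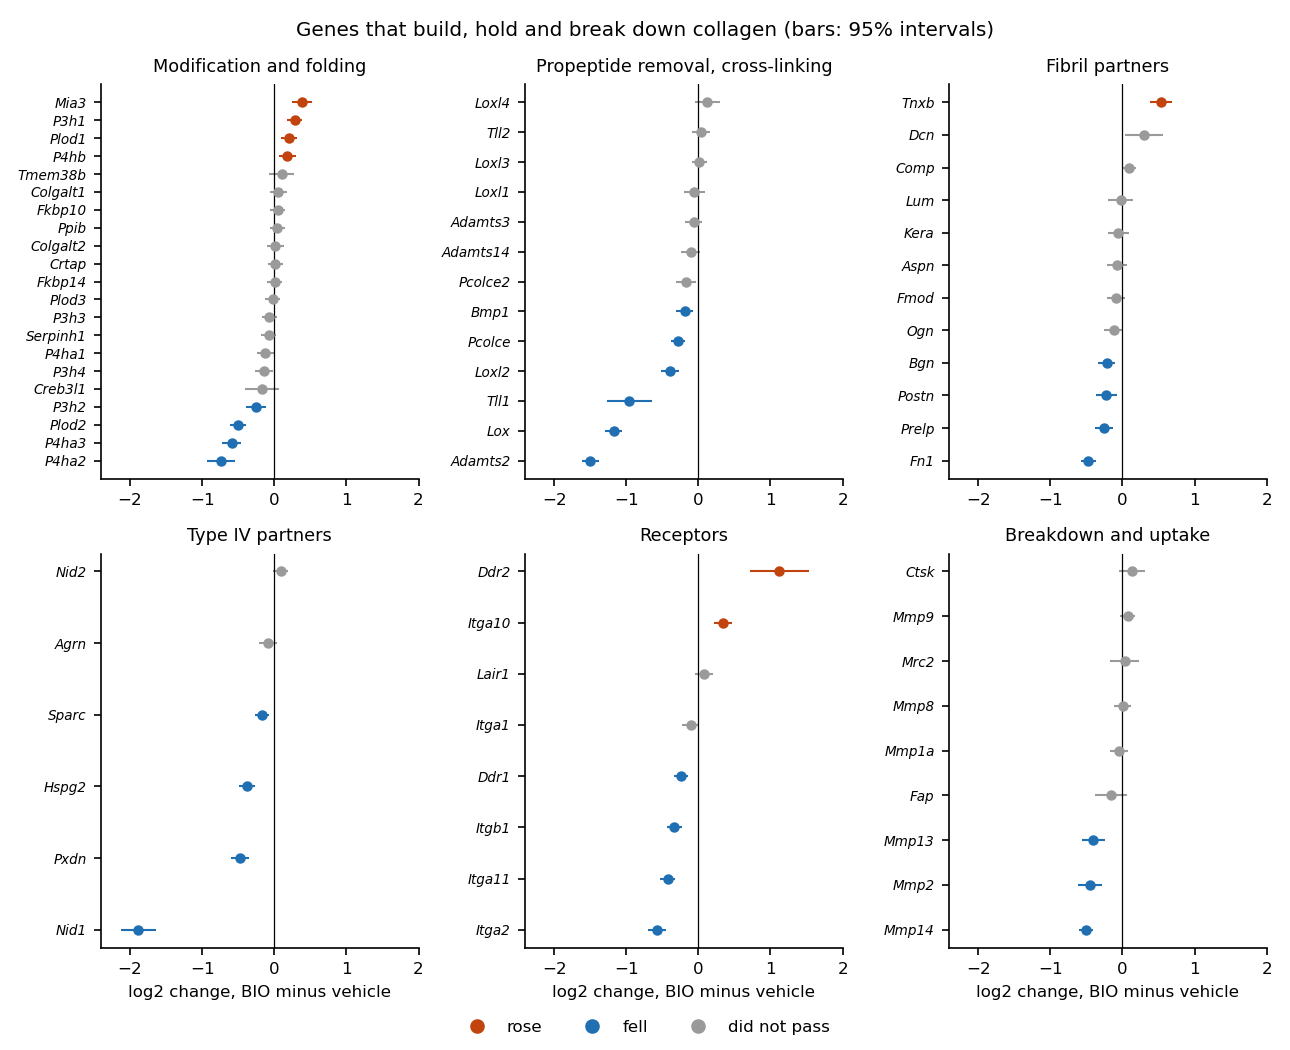
Log2 change (BIO minus vehicle) of the listed genes that build, hold and break down collagen, 1 panel per list, with 95% intervals as bars. Nid1, Adamts2 and Lox lie farthest left, at −1.89, −1.50 and −1.18, and Ddr2 farthest right, at 1.12.

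The authors' deposited table also gives p-values and fold ratios of another of their experiments, headed as 3 Wnt against 4 SF1 samples, whose material is not described in the sources used here. There, 6 of 43 collagen genes had an unadjusted p under 0.05, 3 with a ratio above 1 and 3 below. That share was near the 12.9% of all genes, so the single genes named here are descriptions only. In the authors' deposited table Col4a1 had a WNT over SF1 ratio of 0.661 (p = 0.00778), in the same direction as its fold ratio of BIO over vehicle in that table, 0.681. Col6a1 had a WNT over SF1 ratio of 1.89 (p = 0.0105) in the authors' deposited table, opposite to its BIO over vehicle ratio of 0.883. The other 4 in the authors' deposited table were Col18a1 (1.35, p = 4.43e-05), Col28a1 (1.13), Col25a1 (0.886) and Col4a4 (0.865), none of which passed under BIO.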

How the data were processed

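Total RNA (250 ng) from 8 ATCL7 samples was read on Affymetrix Mouse Gene 1.1 ST arrays. For 28944 probe sets the authors deposited RMA expression on a log2 scale, and the submitters' processing notes name the oligo package. Its version and each array's strip and scan are not given here. The authors' deposited table also gives unadjusted p-values and linear fold ratios for the paired comparison and for another experiment, per the file headers. A second deposited table repeated the values within 5.0e-09 log2.

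Of the probe sets, 23812 had 1 symbol, and the probe set with the highest mean was used for each of 20719 genes. BIO minus vehicle was tested on both sides in limma 3.58.1 (R 4.3.3), each pair being a block, and p-values were adjusted by Benjamini-Hochberg over all genes. Pairs come from the titles, and deviations of same-numbered arrays from group means correlated at 0.446, 0.578, 0.385 and 0.617. The fit was tested on simulated data. The members, classes and lists were chosen with earlier results of these data known, so no list carries a test. Per-array values were to be given for collagen genes past the threshold with a change of at least 0.5 log2 and for the 10 with the highest mean. Per list, up to 4 passing genes with the largest absolute change and 2 other genes with the highest mean were to be named. Alternatives were the fit without the block, an intensity trend with robust prior, the authors' paired test, leaving out the lowest 25% or 50% of genes, cyclic loess, centring on array medians, averaging probe sets and leaving out each pair. Promoter sequences are from RefSeq, GRCm38.p6.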

Additional observations from a re-analysis of the deposited data

Results flagged for a closer look

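Among 156 groups of 4 arrays examined, 5 had a sample that stood apart from the other 3 by Dixon's ratio (the gap to the nearest sample over the whole range) at its critical value for 4 samples. Chance flags about 1 in 20 groups. BIO replicate 2 of Col14a1 was low, at 5.96 log2 against 6.92 for the nearest BIO array (ratio 0.87), and vehicle replicate 2 was the lowest vehicle array of that gene as well. BIO replicate 1 of Col8a1 was low, at 4.03 against 4.23 (ratio 0.921). In vehicle, replicate 1 was low for Col9a2, at 5.47 against 5.73 (ratio 0.885), and for Col24a1, at 4.80 against 4.90 (ratio 0.93), and replicate 2 was high for Col11a1, at 5.43 against 5.32 (ratio 0.853).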

How the results depend on the processing

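Of the 10 collagen genes that passed, 7 did so in every setting that held them; the exceptions were Col1a1, Col4a2 and Col6a1. Signs turned in some setting for 13 collagen genes, 0 of which had passed. Leaving out 1 pair at a time, the ranges were −0.038 to 0.026 log2 (Col1a2), −0.017 to 0.013 (Col2a1), −0.029 to 0.024 (Col4a4), −0.079 to 0.0055 (Col6a4), −0.036 to 0.061 (Col9a1), −0.14 to 0.010 (Col9a2), −0.00092 to 0.067 (Col9a3), −0.036 to 0.036 (Col10a1), −0.020 to 0.0012 (Col16a1), −0.011 to 0.065 (Col18a1), −0.0025 to 0.064 (Col24a1), −0.066 to 0.021 (Col25a1), −0.10 to 0.045 (Col28a1), −0.018 to 0.035 (Loxl3) and −0.045 to 0.14 (Mrc2), and for chain differences −0.026 to 0.015 (Col4a5 minus Col4a6) and −0.011 to 0.15 (Col5a1 minus Col5a2). Col10a1 was −0.0022 with arrays centred on their median and Loxl3 −0.026 with cyclic loess. In the same ranges 1 to 2 collagen genes rose, both outside the fibrillar and type IV classes, where 1 to 3 fell; 2 to 4 modification genes rose, with a median of −0.030 to −0.0024; the trimming and cross-linking median was −0.20 to −0.12; and 1 to 2 fibril partners rose and 2 to 3 fell. Without the pair block 8 collagen genes fell and 1 rose, and outside those classes 1 fell, since Col6a1 was lost. By the authors' deposited paired test 2057 genes were higher and 1890 lower, with 1 modification gene and 1 receptor higher and 1 fibril partner and 1 breakdown gene lower. With the lowest 50% of genes left out, fewer members remained: the medians were −0.50 (8 collagen genes), −0.37 (1 fibrillar, which fell), −0.18 (3 others), −0.24 (trimming and cross-linking), −0.47 (1 fibril partner, lower, 0 higher), −0.37 (type IV partners), −0.29 (receptors, 2 lower and 0 higher) and −0.48 (breakdown). With the lowest 25% left out they were −0.0096 (modification), −0.22 (fibril partners) and −0.19 (breakdown). Cyclic loess gave −0.037 for modification genes, and averaging probe sets made 1 trimming and cross-linking gene, Loxl4, rise. Except where a smaller set of genes accounts for it, the cause was not tested. The small number of arrays and dim probe sets limit what could be detected.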
